A study of Mus musculus with 10 samples.

Results

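The 10 genes described here are Nfe2l2, which encodes the transcription factor NRF2, and 9 antioxidant genes known as its targets: Hmox1, Nqo1, Gclc, Gclm, Txnrd1, Srxn1, Slc7a11, Prdx1 and Gsr. They were taken by symbol from the 48526 gene identifiers of the count table, and all 10 were found. The libraries came from mice whose strain is given as ApoE, with no further genotype, age or sex. The 5 stressed libraries came from mice put under acute mental stress daily for 3 days running, 3 h a day, and the 5 non-stressed libraries from mice without it. All 10 are labelled as endothelial cells of the aorta, isolated by fluorescence-activated cell sorting. The study asked how such stress changes the phenotype of these cells. Whether a library is 1 mouse or a pool is not given, so p-values measure only the spread between these libraries.

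NRF2 is held in the cytoplasm by KEAP1, an adaptor of the CUL3 ubiquitin ligase that has it degraded. Oxidants and electrophiles modify KEAP1, NRF2 then builds up, enters the nucleus, pairs with a small MAF protein and binds antioxidant response elements, while BACH1 competes for the same elements. Its targets make and recycle glutathione, reduce thioredoxin, degrade haem and reduce quinones, both in endothelial cells and in myeloid cells.

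The antioxidant response element is the sequence through which the targets are known to be reached, so the promoters were searched for its core. The cores searched were TGACNNNGC and TGAGNNNGC, on both strands, in the 250 bases upstream of each RefSeq start (GRCm38.p6). Of the 10 genes, 7 had a window and 6 of these held either core; Nqo1 was the one that did not. Counted by window, 6 of 9 held a core, since Txnrd1 has 3 windows and a match in 1. Hmox1, Gclc and Gsr had no entry. Of 32851 such windows over all genes, 23.0% held either core (10.2% the first and 14.4% the second), and 4.46% held TGACTCA, the AP-1 motif, which can overlap a core. The stretches of the 5 targets with a match are printed 5′ to 3′ on the strand of the gene, with the match in capitals.
Srxn1, chr2:152105453-152105513, plus strand: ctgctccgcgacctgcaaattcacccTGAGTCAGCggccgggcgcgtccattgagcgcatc
Srxn1, chr2:152105340-152105400, plus strand: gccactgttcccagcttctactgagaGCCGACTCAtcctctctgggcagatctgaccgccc
Prdx1, chr4:116685440-116685500, plus strand: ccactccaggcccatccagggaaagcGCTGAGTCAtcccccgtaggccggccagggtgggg
Gclm, chr3:122245397-122245457, plus strand: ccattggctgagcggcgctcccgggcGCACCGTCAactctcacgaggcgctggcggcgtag
Txnrd1, chr10:82859088-82859148, plus strand: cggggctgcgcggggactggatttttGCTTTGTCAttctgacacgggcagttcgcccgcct
Slc7a11, chr3:50443676-50443736, minus strand: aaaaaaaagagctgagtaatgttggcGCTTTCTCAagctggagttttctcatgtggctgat
The first Srxn1 match runs from 45 to 37 bases upstream of the start on the strand of the gene, and the second, at 158 to 150 bases, lies on the opposite strand, as do the other 4. The first Srxn1 match and the Prdx1 match overlap the AP-1 motif. These are matches of letters, not shown binding sites, and a window without one says nothing of the factor.

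Before the results, the libraries were set against the markers of their label. Cdh5, the endothelial VE-cadherin, had 115 reads in all (0 to 0.994 CPM, reads per 1000000 counted reads), and Nos3, the endothelial nitric oxide synthase, 20 reads (0 to 0.452 CPM). Of 10 endothelial markers, 2 had reads in every library and Tek, Emcn and Cldn5 were at 0 in all 10; their summed level was 56.4 to 144 CPM in the non-stressed and 65.3 to 99.3 CPM in the stressed libraries. All 10 monocyte and macrophage markers had reads in every library, with sums of 24641 to 36523 and 29448 to 36242 CPM. Lyz2, the myeloid lysozyme, stood at 15692 to 26748 CPM, the leukocyte antigen Ptprc at 2650 to 3019 CPM, and C1qa, a complement gene of resident macrophages, at 0 to 16.2 CPM. The values below are thus those of libraries labelled endothelial in which myeloid transcripts were abundant. Library totals ran from 18020220 to 38237346 counts, so 3 counts, the limit set by a count of 0, correspond to 0.0785 to 0.166 CPM. Y-linked transcripts were counted in 6 libraries (non-stressed and stressed 2, 3 and 4) and not in the other 4. The X-linked Xist had 9241 to 18977 reads in those 4 and 0 in the 6, so no library held both.

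No difference between stressed and non-stressed libraries was detected for any of the 9 testable genes. By edgeR's quasi-likelihood test with Benjamini-Hochberg adjustment over 13334 genes, 0 of 9 passed the threshold of 0.05, and 0 of 9 reached an unadjusted p under 0.05; DESeq2 and limma-voom also called 0. Across all tested genes 0.0075% passed (Chil3, named after its value was seen) and 5.53% reached the unadjusted p, so a count of 0 among 9 genes is near the background. The groups overlapped for all 10 genes, where 1.09% of all tested genes did not overlap (0.607% with stressed higher and 0.487% with stressed lower). Nqo1, the tenth, fell under the low-count filter. Estimated fold changes were 6 above and 3 below 1, with a median log2 fold change of 0.03, against 0.004 over all tested genes. The 95% intervals of 8 of the 9 lay within 2-fold in either direction; that of Slc7a11 did not.

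**Figure D1:**
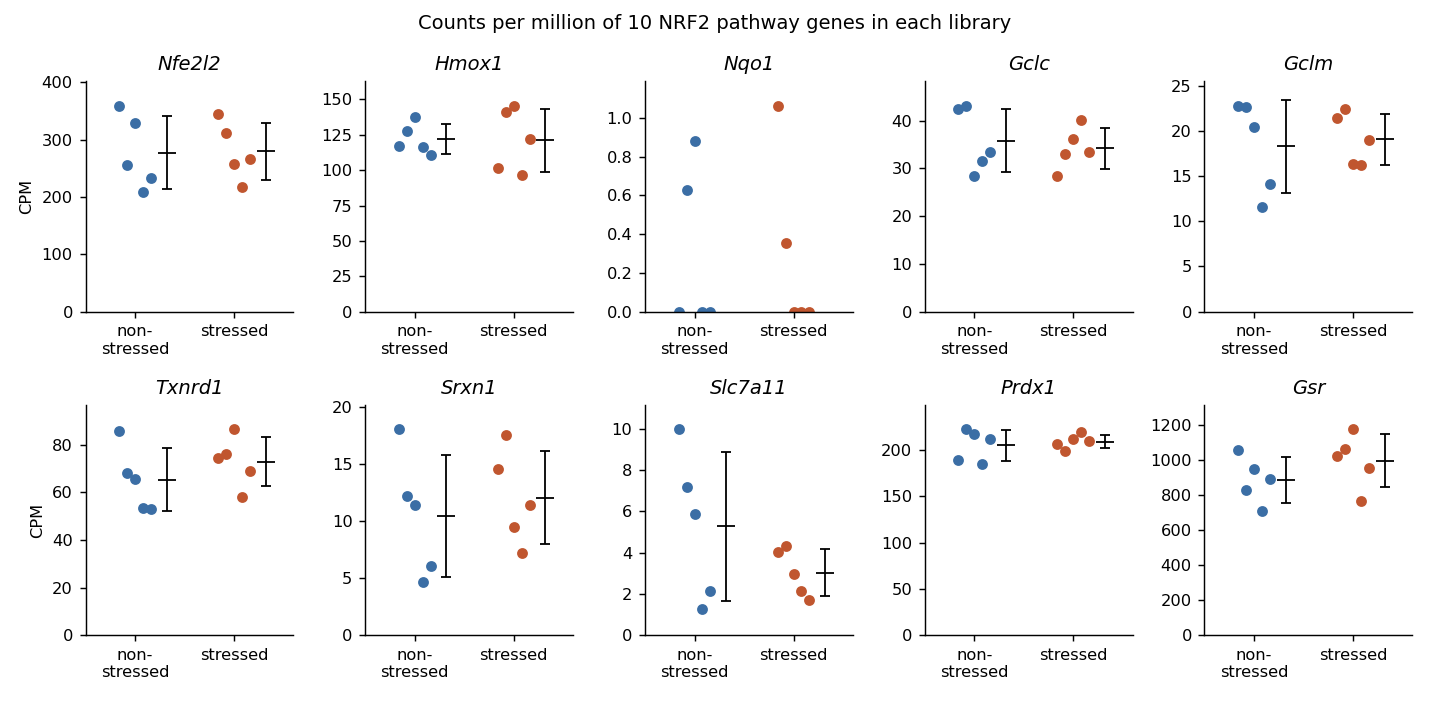
CPM (vertical axes, each from 0) of the 10 genes in each library; points are libraries in the order of their replicate numbers, blue non-stressed and red stressed, and the bars give the mean and SD of 5 libraries, left out for Nqo1, which had reads in 4 libraries. The 2 groups overlap in every panel; Gclm and Srxn1 have their 2 lowest values in non-stressed libraries 4 and 5.

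No difference was detected in the regulator itself. Nfe2l2 (ENSMUSG00000015839, chr2:75675513-75704641, minus strand, mm10) stood at 359, 256, 329, 209 and 234 CPM in non-stressed libraries 1 to 5 and at 344, 312, 258, 218 and 266 CPM in stressed libraries 1 to 5. Every stressed value lay inside the non-stressed range. The means were 277 ± 64.0 (SD, n = 5) and 279.5 ± 49.3 CPM (SD, n = 5), which is 0.02 in log2 fold change (SE 0.15, adjusted p = 0.998), and the interval ran from 0.814-fold to 1.26-fold. Since NRF2 is controlled largely through protein stability, its mRNA is not a measure of its activity. In these bulk counts, fewer cells of a type and less RNA per cell cannot be told apart.

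Hmox1 encodes haem oxygenase 1, which breaks haem into biliverdin, iron and carbon monoxide and is repressed by BACH1. The gene (ENSMUSG00000005413, chr8:75093621-75100589, plus strand) had 117, 127, 137, 116 and 110.4 CPM in the non-stressed and 102, 141, 146, 96.3 and 122 CPM in the stressed libraries. The stressed libraries spread to both sides: 2 lay above and 2 below all non-stressed ones. The means, 122 ± 10.6 (SD, n = 5) and 121 ± 22.3 CPM (SD, n = 5), differed by -0.002 on the log2 scale (SE 0.12, adjusted p = 0.9999, interval 0.841-fold to 1.19-fold).

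Nqo1 encodes a quinone reductase that is among the most used NRF2 target genes. It had few reads (ENSMUSG00000003849, chr8:107388225-107403206, minus strand): 86 in all, in 4 of 10 libraries. Non-stressed libraries 2 and 3 had 0.628 and 0.879 CPM and stressed libraries 1 and 2 had 1.06 and 0.355 CPM. The other 6 were at 0, which allows levels of up to 0.0994 to 0.166 CPM. Each group thus held 2 libraries with reads and 3 at 0, and the groups were not compared further. The limits cover counting error only.

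No difference was detected in the 4 glutathione genes either, and Slc7a11 was the one measured with the widest interval. Slc7a11 encodes xCT, the light chain of the cystine-glutamate exchanger, which brings in the cystine from which glutathione is made. The gene (ENSMUSG00000027737, chr3:49892526-50443614, minus strand) stood at 9.97, 7.17, 5.90, 1.26 and 2.16 CPM in the non-stressed and at 4.02, 4.30, 3.00, 2.15 and 1.72 CPM in the stressed libraries. Non-stressed libraries 1, 2 and 3 lay above all 5 stressed ones, and library 4 below them. The means were 5.29 ± 3.6 (SD, n = 5) and 3.04 ± 1.13 CPM (SD, n = 5), a difference of -0.80 on the log2 scale (SE 0.50, adjusted p = 0.943). The interval of 0.275-fold to 1.2-fold includes a fall of more than 2-fold. One library moved this value by more than 1.5 times: without non-stressed library 1 the log2 fold change was -0.449.

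Gclc and Gclm encode the catalytic and the modifier subunit of glutamate-cysteine ligase, the enzyme of the rate-limiting step of glutathione synthesis. Gclc (ENSMUSG00000032350, chr9:77754535-77794485, plus strand) had 42.4, 43.1, 28.4, 31.6 and 33.5 CPM in the non-stressed and 28.4, 32.9, 36.1, 40.2 and 33.3 CPM in the stressed libraries. The groups span nearly the same range. Gclc averaged 35.8 ± 6.62 (SD, n = 5) and 34.2 ± 4.34 CPM (SD, n = 5), or -0.06 on the log2 scale (SE 0.14, adjusted p = 0.988, interval 0.781-fold to 1.18-fold). Gclm (ENSMUSG00000028124, chr3:122245557-122270732, plus strand) had 22.8, 22.6, 20.4, 11.6 and 14.2 CPM against 21.4, 22.4, 16.3, 16.2 and 19.0 CPM. The lowest values were those of non-stressed libraries 4 and 5. Gclm averaged 18.3 ± 5.15 (SD, n = 5) and 19.1 ± 2.83 CPM (SD, n = 5), a difference of 0.06 on the log2 scale (SE 0.19, adjusted p = 0.993, interval 0.784-fold to 1.39-fold).

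Gsr encodes glutathione reductase, which returns oxidised glutathione to its reduced form with NADPH. The gene (ENSMUSG00000031584, chr8:33652523-33698163, plus strand) had the most reads of the 10, 249510 in all. It stood at 1055, 827, 945, 709 and 892 CPM in the non-stressed and 1019, 1062, 1172, 765 and 952 CPM in the stressed libraries, and 2 of the stressed values exceeded every non-stressed one. The means were 885 ± 129 (SD, n = 5) and 994 ± 151 CPM (SD, n = 5), and the log2 fold change of 0.17 (SE 0.11, adjusted p = 0.948) had an interval of 0.954-fold to 1.33-fold. A snoRNA gene inside Gsr, Gm24727, had 311 reads.

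In the 3 genes of the thioredoxin arm, too, no difference was detected. Txnrd1 encodes cytosolic thioredoxin reductase (ENSMUSG00000020250, chr10:82833951-82897712, plus strand). It had 85.6, 68.3, 65.6, 53.7 and 53.3 CPM in the non-stressed and 74.3, 76.1, 86.5, 58.3 and 69.2 CPM in the stressed libraries. Only stressed library 3 lay above all non-stressed ones, by less than 1 CPM. The log2 fold change was 0.16 (SE 0.14, adjusted p = 0.950, interval 0.914-fold to 1.37-fold), from 65.3 ± 13.3 (SD, n = 5) to 72.9 ± 10.3 CPM (SD, n = 5).

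Prdx1 encodes peroxiredoxin 1, which reduces peroxides with electrons from thioredoxin (ENSMUSG00000028691, chr4:116685544-116700822, plus strand). It stood at 189.6, 222, 217, 185 and 212 CPM in the non-stressed and 206, 199, 212, 219 and 209 CPM in the stressed libraries. The stressed values all lay within the non-stressed range. The means were 205 ± 16.8 (SD, n = 5) and 209 ± 7.36 CPM (SD, n = 5), which is 0.03 in log2 fold change (SE 0.07, adjusted p = 0.987), and the interval of 0.922-fold to 1.14-fold was the narrowest of the 9. Srxn1 encodes sulfiredoxin, which repairs overoxidised peroxiredoxins (ENSMUSG00000032802, chr2:152105516-152111376, plus strand). It had 18.1, 12.2, 11.4, 4.72 and 6.05 CPM in the non-stressed and 14.6, 17.6, 9.49, 7.26 and 11.4 CPM in the stressed libraries. The highest and the 2 lowest libraries were all non-stressed. Srxn1 averaged 10.5 ± 5.34 (SD, n = 5) and 12.1 ± 4.09 CPM (SD, n = 5), a difference of 0.21 on the log2 scale (SE 0.33, adjusted p = 0.980, interval 0.705-fold to 1.89-fold).

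**Figure D2:**
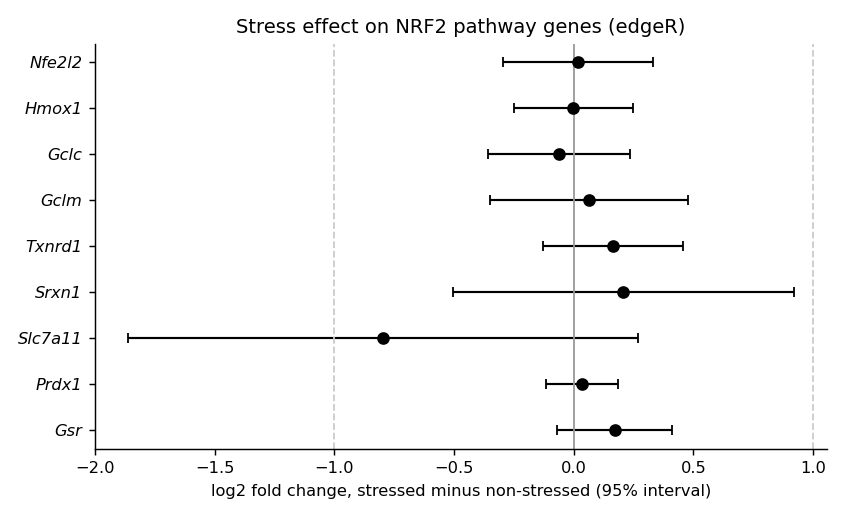
Log2 fold changes, stressed over non-stressed, of the 9 tested genes by edgeR, with 95% intervals as bars and a line at 0. Every interval crosses 0; Prdx1 has the narrowest and Slc7a11, at -0.80, the widest.

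The levels of the 10 genes per kilobase of merged exons fell into steps. Gsr was highest at 341 CPM per kb on average over the 10 libraries (257 to 426), above the range of every other gene. Nfe2l2 (73.3, range 55.0 to 94.6), Hmox1 (69.4, 55.0 to 83.1) and Prdx1 (68.1, 60.7 to 73.0 CPM per kb) overlapped, as did Txnrd1 at 9.75 (7.52 to 12.2) and Gclc at 9.29 CPM per kb (7.53 to 11.4). Srxn1 at 4.0 (1.67 to 6.40) and Gclm at 2.97 CPM per kb (1.84 to 3.62) formed the next overlapping pair. Slc7a11 at 0.299 (0.0903 to 0.716) and Nqo1 at 0.188 CPM per kb (0 to 0.684) were lowest and overlapped. With the principal transcript's length in place of merged exons, Hmox1 and Prdx1 exchanged places and the rest of the order stayed, but Txnrd1 came to 19.6 CPM per kb (15.1 to 24.5) and no longer overlapped Gclc at 10.2 CPM per kb (8.28 to 12.6).

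The ratios between partners within a library were compared, since they need no scaling between libraries. They were log2 ratios of counts plus 0.5, tested with an exact permutation test (two-sided, every assignment of the libraries to groups of 5, smallest possible p = 0.00794) and adjusted over 4 ratios. Gclm over Gclc, the modifier to catalytic subunit, was -0.998 ± 0.373 (SD, n = 5) without stress and -0.845 ± 0.380 (SD, n = 5) with it (exact p = 0.532, adjusted p = 0.730). Nfe2l2 over Keap1 was 1.95 ± 0.349 (SD, n = 5) and 2.01 ± 0.378 (SD, n = 5; exact p = 0.762, adjusted p = 0.762). Srxn1 over its substrate's gene Prdx1 was -4.45 ± 0.773 (SD, n = 5) and -4.18 ± 0.552 (SD, n = 5; exact p = 0.548, adjusted p = 0.730). Slc7a11 over Slc3a2, which encodes the heavy chain of the same exchanger, was -3.86 ± 1.32 (SD, n = 5) and -4.34 ± 0.649 (SD, n = 5, exact p = 0.476, adjusted p = 0.730). The groups overlapped in all 4 ratios. Slc3a2 itself stood at 59.9 ± 7.57 (SD, n = 5) and 60.2 ± 15.7 CPM (SD, n = 5), a difference of 0.01 on the log2 scale (SE 0.16, adjusted p = 0.998).

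The wider pathway was read from 4 lists of other genes, and none of their members passed the threshold by edgeR, DESeq2 or limma-voom. Among 11 regulators and partners of NRF2, 4 estimates were higher and 7 lower, with 0 at an unadjusted p under 0.05 and a median log2 fold change of -0.05. Keap1 stood at 70.1 ± 2.32 (SD, n = 5) and 68.8 ± 10.02 CPM (SD, n = 5), or -0.02 on the log2 scale (SE 0.10, adjusted p = 0.996). Bach1, the repressor, stood at 449.7 ± 28.9 (SD, n = 5) and 409 ± 42.9 CPM (SD, n = 5), which is -0.13 in log2 fold change (SE 0.08, adjusted p = 0.940). The other 4 named of this list were the ligase scaffold Cul3 (log2 fold change -0.12), the small MAF genes Mafg (0.12) and Maff (-0.71, SE 0.63, from 1.99 to 1.22 CPM on average) and the NRF2 relative Nfe2l1 (-0.12), with adjusted p-values from 0.950 to 0.951.

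Of 21 other NRF2 targets, 16 were tested; 14 estimates were higher and 2 lower in stressed libraries, with a median log2 fold change of 0.11, against 50.9% higher and a median of 0.004 over all tested genes. None passed the threshold, and 3 of 16 reached an unadjusted p under 0.05, against 5.53% of all tested genes. The groups of all 16 overlapped, where 1.09% of all tested genes did not overlap. The 3 were Osgin1, an oxidative stress-induced growth inhibitor, and Pgd and Taldo1 of the pentose phosphate pathway, which supplies NADPH. Osgin1 went from 12.7 ± 3.81 (SD, n = 5) to 18.4 ± 5.11 CPM (SD, n = 5), or 0.54 on the log2 scale (SE 0.23, adjusted p = 0.874). Pgd went from 491 ± 32.2 (SD, n = 5) to 549.7 ± 21.2 CPM (SD, n = 5), which is 0.17 in log2 fold change (SE 0.06, adjusted p = 0.874). Taldo1 had a log2 fold change of 0.14 (adjusted p = 0.893), the carbonyl reductase Cbr3 of 0.45 (adjusted p = 0.895) and the biliverdin reductase Blvrb of 0.22 (adjusted p = 0.943). Not tested for low counts were Me1 and Gpx2, with 0 reads, and Gsta3, Gsta4 and Aldh3a1, with 30, 3 and 4 reads.

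Of 20 other redox enzymes, 19 were tested (13 estimates higher, 6 lower, median log2 fold change 0.06). Of these 19, 0 passed the threshold and 3 reached an unadjusted p under 0.05, against 5.53% of all tested genes. In 2 of the 19 the groups did not overlap, against 1.09% of all tested genes. Prdx2, the peroxiredoxin abundant in red cells, stood at 107, 109.6, 108, 111 and 109 CPM in the non-stressed and 119.9, 126, 138, 121 and 134 CPM in the stressed libraries. Its groups did not overlap, but the log2 fold change of 0.23 (SE 0.07) had an adjusted p of 0.788. Gpx1, a glutathione peroxidase that red cells also hold, did not overlap either, at 1186 to 1387 CPM against 1415 to 1514 CPM (log2 fold change 0.15, SE 0.06, adjusted p = 0.874). Beside these, the 8 erythroid markers were all estimated higher, as were 50.9% of all tested genes, with 0 of 8 past the threshold. They summed to 1342 to 2802 CPM in the non-stressed and 1181 to 5576 CPM in the stressed libraries. Stressed library 4 had the lowest erythroid sum of the 10 libraries, 1181 CPM. Its Prdx2 and Gpx1, at 121 and 1423 CPM, lay above every non-stressed library. The part of the erythroid markers in the Prdx2 and Gpx1 values was not tested. The glutaredoxin Glrx had a log2 fold change of -0.25 (the third at that p, SE 0.11, adjusted p = 0.877), and Prdx6 and Gpx3 had log2 fold changes of 0.17 and 0.43 (adjusted p = 0.893 and 0.940).

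The 6 genes of haem and bilirubin handling, which act beside Hmox1, gave 2 higher and 4 lower estimates (median log2 fold change -0.11), 0 past the threshold. The haem exporter Flvcr1 alone, 1 of 6, reached an unadjusted p under 0.05, against 5.53% of all tested genes. Flvcr1 stood at 115 ± 12.3 (SD, n = 5) against 97.5 ± 11.2 CPM (SD, n = 5), or -0.23 on the log2 scale (SE 0.10, adjusted p = 0.874). The biliverdin reductase Blvra had a log2 fold change of 0.18, the constitutive haem oxygenase Hmox2 of -0.16, the haem transporter Slc48a1 of -0.07 and the haem-induced transcription factor Spic of -0.31, with adjusted p-values from 0.940 to 0.976.

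**Figure D3:**
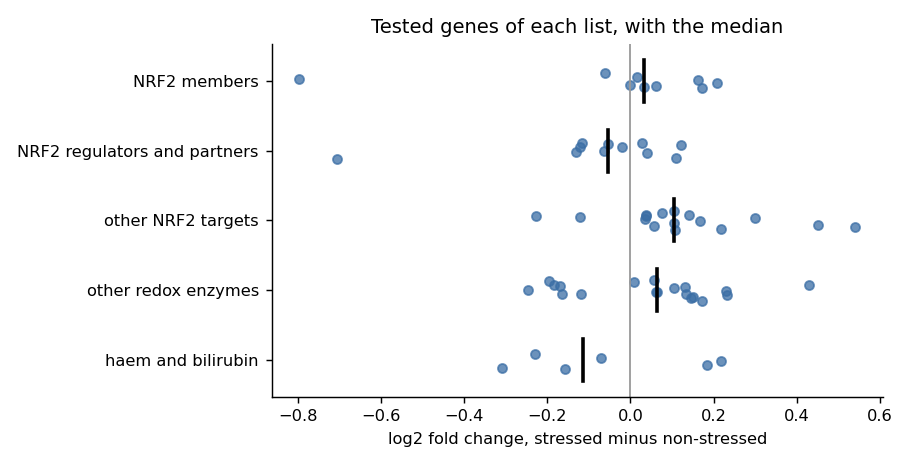
Log2 fold changes, stressed over non-stressed, of the tested genes of the NRF2 gene set and of the 4 other lists; each point is a gene and the black bar is the median of its list. The other NRF2 targets have the highest median, 0.11, and no point in any list passed the threshold.

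Several of the genes varied together from library to library. Between libraries, Slc7a11 had an SD of 0.933 and Srxn1 of 0.636 on the log2 CPM scale, Gclm of 0.327, Nfe2l2 of 0.276, Txnrd1 of 0.250, Gsr of 0.226, Gclc of 0.215, Hmox1 of 0.200 and Prdx1 of 0.0882, against a median of 0.195 over 8270 tested genes of at least 10 CPM, which leaves out Slc7a11. The median over all 13334 tested genes was 0.291, and Nfe2l2, Txnrd1, Gsr, Gclc and Hmox1 lay between the 2 medians. Of 36 pairs of the 9 genes, 7 passed the threshold by Pearson's r over the 10 libraries (100000 permutations, Benjamini-Hochberg over 36), all with a positive r. They all lay among Nfe2l2, Gclm, Txnrd1, Srxn1, Slc7a11 and Gsr, 6 genes grouped after their values were seen. Over all 36 pairs r ran from -0.231 to 0.956 with a median of 0.295. Over the 15 pairs of these 6 genes, which were chosen for their high r, it ran from 0.438 to 0.956 (median 0.755), and over the 21 pairs with Hmox1, Gclc or Prdx1 from -0.231 to 0.505 (median 0.0898). The quartiles of r over all pairs of tested genes were -0.269 and 0.276. The share of all those pairs that reach the r of the 7 was not counted. Whether such co-variation is particular to these genes was therefore not tested.

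Gclm and Srxn1 had the highest value, r = 0.956 (adjusted permutation p = 0.00036; rho = 0.952, adjusted permutation p = 0.00252). Without non-stressed libraries 4 and 5, the 2 farthest from the median, r was 0.881, and within the 6 libraries with Y-linked transcripts 0.945. For Nfe2l2 and Srxn1 r was 0.884 (rho = 0.842, adjusted permutation p = 0.0146 and 0.0335), and 0.844 without 2 libraries. For Txnrd1 and Gsr, both NADPH-using reductases, r was 0.856 (rho = 0.891, adjusted permutation p = 0.0253 and 0.0168), and 0.902 without 2 libraries. Gclm and Slc7a11 gave 0.824 (rho = 0.879, adjusted permutation p = 0.0286 and 0.0168), and 0.736 without 2. The other 3 pairs were Nfe2l2 with Gclm (r = 0.811), Txnrd1 with Srxn1 (r = 0.807) and Srxn1 with Slc7a11 (r = 0.776). Their adjusted permutation p for r ran from 0.0318 to 0.0460, but for rho from 0.0876 to 0.117, and without 2 libraries r was 0.783, 0.568 and 0.620. The 4 libraries without Y-linked transcripts are too few for a value of their own.

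**Figure D4:**
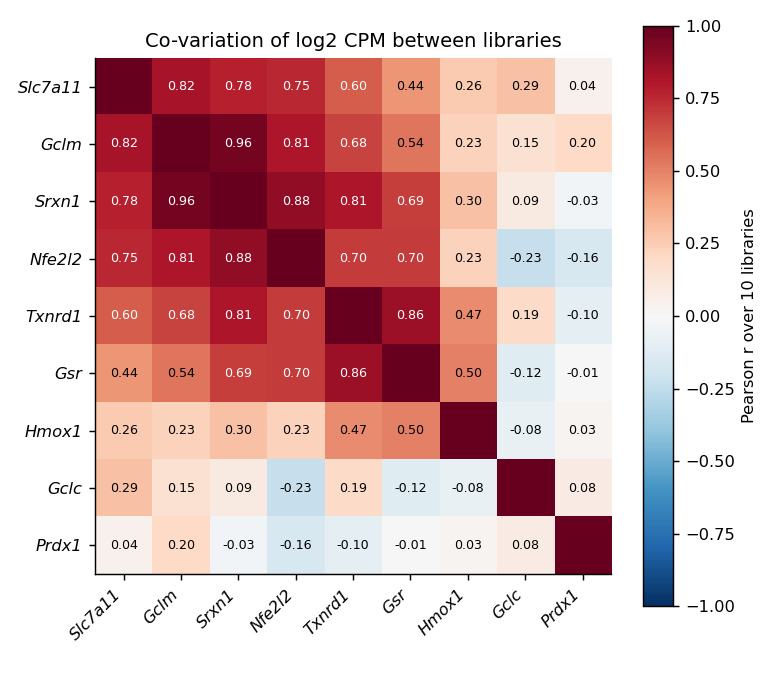
Pearson's r between each pair of the 9 tested genes over 10 libraries, on log2 CPM; the colour gives r. Nfe2l2, Gclm, Txnrd1, Srxn1, Slc7a11 and Gsr have r among each other of 0.438 to 0.956, and pairs with Hmox1, Gclc or Prdx1 at most 0.505.

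Libraries high in Gclm and Srxn1 tended to be high in neutrophil, T and NK, B cell and platelet markers. No such relation passed the test. All 10 neutrophil markers had reads in some library and 7 in every library. Their summed level was 2588, 1488, 1327, 864 and 811 CPM in the non-stressed and 1878, 2374, 1128, 1129 and 1081 CPM in the stressed libraries. Their mean log2 level had an r of 0.834 with Gclm (rho = 0.806) and 0.827 with Srxn1 (rho = 0.818), which became 0.667 and 0.633 without non-stressed libraries 4 and 5. The adjusted permutation p was 0.0815 for both, over 90 relations of 9 genes with 10 marker lists, none of which passed. The same adjusted p held for Slc7a11 with T and NK cell markers (r = 0.859; summed level 18.8 to 116 CPM in the non-stressed and 12.5 to 80.0 CPM in the stressed libraries), Gclm with B cell markers (r = 0.810; 503 to 1035 and 367 to 709 CPM) and Txnrd1 with erythroid markers (r = 0.813). Slc7a11 also went against the monocyte and macrophage markers (r = -0.785, rho = -0.794, adjusted permutation p = 0.0915). With T and NK cell markers r was 0.794 for Gclm and 0.743 for Srxn1 (adjusted permutation p = 0.0915 and 0.132). Without non-stressed libraries 4 and 5 these were 0.891 and 0.720. Srxn1 with B cell markers had r = 0.688 (adjusted permutation p = 0.182). Without the same 2 libraries r with B cell markers was 0.757 for Gclm and 0.491 for Srxn1. With platelet markers (summed level 107 to 317 and 158 to 322 CPM) r was 0.753 for Gclm and 0.744 for Srxn1 (adjusted permutation p = 0.112 and 0.124). Without non-stressed libraries 4 and 5 it was 0.340 and 0.356. Estimates were higher in stressed libraries for 8 of 8 platelet, 7 of 10 neutrophil and 6 of 10 monocyte and macrophage markers. They were higher for 2 of 10 T and NK, 0 of 8 B cell and 0 of 4 tested endothelial markers. Over all tested genes 50.9% were higher, and none of these markers passed the threshold. With the neutrophil level as a covariate, a fit added after seeing the data, the log2 fold change of Slc7a11 was -1.03 (SE 0.37, adjusted p = 0.289), that of Srxn1 -0.01 and that of Gclm -0.075, and 0 of 9 genes passed. The part of any of these cell types in the levels of the 6 genes was not tested further.

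**Figure D5:**
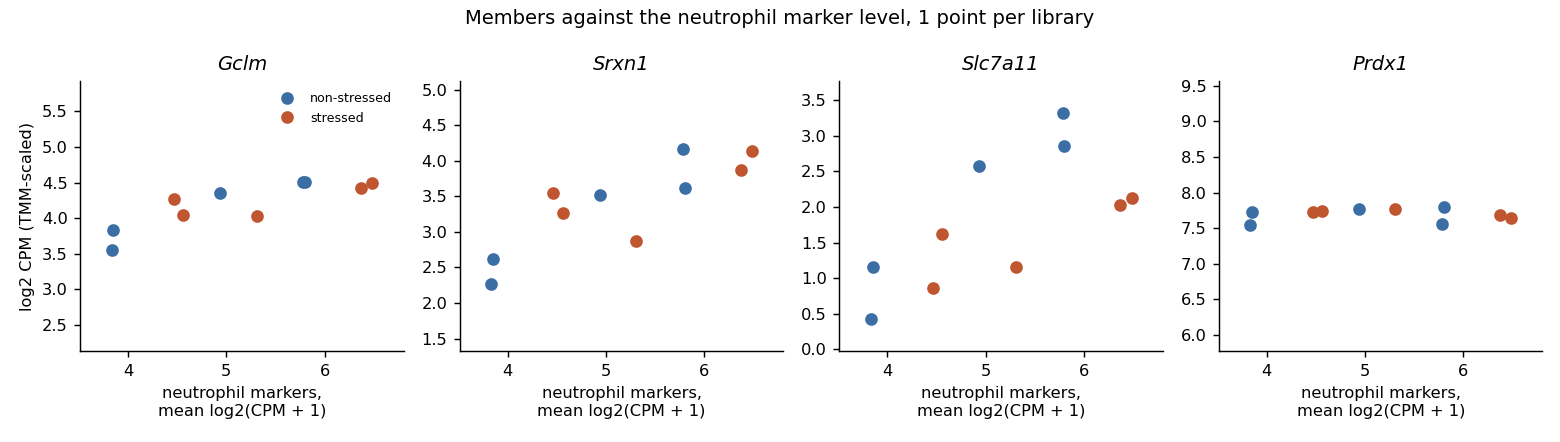
Log2 CPM of Gclm, Srxn1, Slc7a11 and Prdx1 (vertical axes of equal span) against the mean log2 level of 10 neutrophil markers; points are libraries, blue non-stressed and red stressed. Gclm and Srxn1 are higher where the markers are higher (r = 0.834 and 0.827), and Prdx1 is flat (r = 0.0110). T and NK cell markers, not drawn, gave r = 0.794 with Gclm and 0.743 with Srxn1.

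The genes most like Srxn1 over the 10 libraries were Lfng, a Notch-modifying glycosyltransferase (r = 0.981, rho = 0.964), and Retnlg (r = 0.967, rho = 0.988) and Lcn2 (r = 0.961, rho = 0.952), both known from neutrophils. Those most like Gclm were the interleukin 36 gamma gene Il1f9 (r = 0.959, rho = 0.939), the iron exporter Slc40a1 (r = 0.958, rho = 0.915) and Srxn1 itself. For each gene these were the 3 highest r among the named tested genes with an average log2 CPM of at least 1. A high r was thus selected for. These values are descriptions over the same 10 libraries, which differ in depth and in the levels of the cell type markers. Retnlg is also one of the neutrophil markers.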

How the data were processed

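Read counts per gene were given for 10 libraries. A PicoPure kit served for the RNA and a TruSeq Stranded kit for the libraries, per the labels' protocols. The submitters' processing notes name Trimmomatic, STAR, featureCounts and mm10. Which versions, annotation and strand setting were used is not given in the sources, so reads of overlapping genes are uncertain. The deposited counts are raw, and groups come from the sample titles.

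The test was that of edgeR 4.0.16 under R 4.3.3 (filterByExpr with a minimum count of 10, TMM factors, quasi-likelihood F test, Benjamini-Hochberg adjustment over 13334 genes, threshold 0.05). The standard error is the log2 fold change divided by the square root of F. Levels are counts per 1000000 counts of the plain total; correlations use TMM log2 CPM with a prior count of 2. Coordinates and exon lengths are from GENCODE (mm10), promoters from RefSeq (GRCm38.p6). The permutation tests of the ratios used scipy 1.17.1, and those of the correlations numpy 2.4.6. The code was tested on simulated counts.

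The 10 genes and all lists were chosen with earlier results of these data known. Named were the 10 genes, up to 5 genes of each list with the smallest p, Keap1, Bach1, Slc3a2, 5 defining markers, and the 3 genes most like each of the 2 most variable genes averaging at least 10 CPM. Alternatives were upper-quartile or RLE factors, limma-voom (limma 3.58.1), DESeq2 1.42.0, 2 other filters, a robust dispersion, the replicate number as a block, Y-linked transcripts as a covariate and leaving out each library. Added after seeing the data were the neutrophil level as a covariate, fits within the libraries with or without Y-linked transcripts, and the length of the principal transcript.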

Additional observations from a re-analysis of the deposited data

How the results depend on the processing

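None of the 9 tested NRF2 genes, and none of the genes of the 4 other pathway lists, passed the threshold under any of 22 alternatives; the lowest adjusted p of the 9 genes was 0.289 (Slc7a11 with the neutrophil level as covariate). The count over all genes, 1 by edgeR, was 19 by DESeq2, 2 by limma-voom, 10 without a low-count filter, 18 with the neutrophil level as covariate and 0 in the 4 libraries without Y-linked transcripts; leaving out 1 library gave 1 to 2 (2 without non-stressed library 5). The cause was not tested. Of 198 fold changes of the 9 genes under these alternatives, 24 changed sign. By limma-voom the log2 fold change of Nfe2l2 was -0.035, of Gclc 0.052 and of Gclm -0.007; with the neutrophil level as covariate that of Nfe2l2 was -0.101, of Gclm -0.075 and of Srxn1 -0.012; in the libraries with Y-linked transcripts that of Nfe2l2 was -0.014, of Hmox1 0.003 and of Gclc 0.081. Leaving out each library in turn gave log2 fold changes of -0.071 to 0.119 for Nfe2l2, -0.076 to 0.068 for Hmox1, -0.140 to 0.010 for Gclc, -0.064 to 0.146 for Gclm, -0.002 to 0.059 for Prdx1, 0.092 to 0.270 for Txnrd1, 0.023 to 0.481 for Srxn1, -1.047 to -0.449 for Slc7a11 and 0.104 to 0.250 for Gsr. The difference in log2 Nfe2l2 over Keap1 ran from -0.072 (without stressed library 1) to 0.181 (without non-stressed library 1), and was -0.029 and -0.001 without non-stressed libraries 4 and 5; that of Slc7a11 over Slc3a2 ran from -0.947 (without non-stressed library 4) to -0.122 (without 1), of Srxn1 over Prdx1 from 0.056 to 0.530 (the same libraries), and of Gclm over Gclc from 0.039 to 0.284. With the replicate number as a block, 4 genes of all tested passed and 0 of the 9; Slc7a11 had a log2 fold change of -0.536. Same-numbered libraries correlated at 0.128, 0.156, -0.027, 0.118 and 0.124 (numbers 1 to 5) in their deviations from the group means. Of the 5, 4 exceed 0.1 and 3 correlated best with their own number, and Y-linked transcripts also match by number; since number 3 does not exceed 0.1 and no label states a pairing, the numbers were not taken as pairs. Depth sets the level that a count of 0 allows, 0.0785 to 0.166 CPM over the 10 libraries and 0.0994 to 0.166 CPM in the 6 without Nqo1 reads.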
